A study of Mus musculus with 44 samples.

Results

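Gene expression was compared between microglia of 2 human APOE genotypes, APOE44 and APOE33, cultured from mice. The comparison uses 12 of the 44 RNA-seq libraries of the study: the 6 titled as APOE44 microglia and the 6 titled as APOE33 microglia. Both groups were primary mouse microglia, purified, grown untreated in media for human microglia or astrocytes and tagged as batch 1, with 3 female and 3 male APOE44 libraries against 4 female and 2 male APOE33 libraries. The labels give the genotypes as 44 and 33 and do not give the strain, the age of the animals, the promoter of the human gene or whether replicates are separate animals, cultures or preparations, so the p-values speak to variation among these libraries, which may be technical. The remaining 32 libraries are 22 astrocyte libraries, 4 microglia libraries of the Apoe knock-out (APOEKO, batch 1) and 6 microglia libraries with the mouse's own Apoe gene (ApoeWT, batch 2).

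Microglia are the resident macrophages of the brain, where they clear debris, sense infection and handle lipid taken up from dying cells and myelin. Apolipoprotein E carries cholesterol and phospholipid between cells, and microglia raise their own production of it when they leave the resting state. The APOE4 form of the human protein is the strongest common genetic risk factor for late-onset Alzheimer's disease, and APOE3 is the common form it is set against. The title of the series names cholesterol and extracellular matrix pathways in human glia, and these mouse cells are its mouse Apoe arm.

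Promoter sequences are shown for 2 sets of genes that recur in the results. All are RefSeq windows on GRCm38.p6, 250 bases before to 50 after a gene's start, written along the gene. The first is that of Ncapg2, on the plus strand at chr12:116405186-116405485, shown because Ncapg2 and the divergent transcript D430020J02Rik fell together. Capitals mark the 226 bases that also lie in the promoter window of D430020J02Rik, which starts 275 bases away and is read from the minus strand.
Ncapg2: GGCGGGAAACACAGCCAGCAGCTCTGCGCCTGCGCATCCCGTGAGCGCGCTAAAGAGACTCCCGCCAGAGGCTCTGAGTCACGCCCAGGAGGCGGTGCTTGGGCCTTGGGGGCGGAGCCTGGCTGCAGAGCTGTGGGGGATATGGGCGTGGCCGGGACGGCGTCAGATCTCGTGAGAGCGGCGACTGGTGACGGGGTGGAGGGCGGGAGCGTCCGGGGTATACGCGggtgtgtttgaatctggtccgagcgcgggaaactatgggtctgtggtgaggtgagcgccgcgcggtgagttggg
The window holds 30 CpG pairs, against a median of 7 over the 32851 promoter windows searched, and 11.7% of windows hold at least as many. The second set are stretches of interferon-response promoters, shown because all 41 genes of that list had a positive log2 fold change. Capitals mark GAAA, any 2 bases and GAAA again, or the reverse complement (TTTC, any 2 bases, TTTC), the core of the element bound by interferon-activated factors, with overlapping matches joined and 20 bases on either side. The stretches lie at chr19:34640765-34640833 (Ifit1, plus strand), chr19:34583353-34583436 (Ifit3, plus), chr4:156200855-156200916 (Isg15, minus), chr12:26456543-26456592 (Rsad2, minus) and chr8:71537567-71537622 (Bst2, minus).
Ifit1: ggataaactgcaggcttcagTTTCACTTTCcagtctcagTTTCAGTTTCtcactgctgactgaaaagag
Ifit3: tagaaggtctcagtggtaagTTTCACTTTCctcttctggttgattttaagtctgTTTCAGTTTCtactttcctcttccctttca
Isg15: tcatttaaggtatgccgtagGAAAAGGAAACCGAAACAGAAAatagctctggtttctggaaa
Rsad2: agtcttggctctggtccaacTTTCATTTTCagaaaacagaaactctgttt
Bst2: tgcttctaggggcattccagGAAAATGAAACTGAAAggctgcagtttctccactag
On either strand the motif stood in 18 of the 30 listed interferon genes that have a RefSeq window, and in 3.99% of all 27025 genes with one (3.44% of windows). A match is a description of the letters and does not show that a factor binds there.

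Total counts ran from 96908660 to 115609880 in the APOE44 libraries and from 88991799 to 120505499 in the APOE33 libraries, and RNA integrity numbers from 9.7 to 10 and from 9.6 to 9.9. The label microglia held: the 20 microglia and macrophage markers summed to 31800 to 37360 CPM (counts scaled to the same library total) in APOE44 and to 33050 to 38240 CPM in APOE33, and none of the 20 was called. C1qa, a complement component that marks microglia, stood at 3650, 3916 and 4326 CPM in APOE44 (lowest, median and highest of 6 libraries, as in every such triplet here) against 4008, 4349 and 4683 CPM in APOE33. The mouse Apoe gene gave 40.3, 46.4 and 51.0 CPM in APOE44 against 37.6, 43.6 and 66.7 CPM in APOE33 (log2 fold change -0.04, SE 0.26, adjusted p = 0.97), where ApoeWT microglia had at least 39030 CPM. Transcripts of the human gene were not analysed here.

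Traces of astrocytes and neurons differed between libraries more than between genotypes. The 18 astrocyte markers summed to 152 and 139 CPM in APOE44 replicates 3 and 6 and to 165 CPM in APOE33 replicate 2, and to 42.3 to 71.8 CPM in the other 9 libraries; none of the 18 was at 0 in all 12. The 14 neuron markers gave 9.05 and 6.78 CPM in those APOE44 libraries and 9.49 CPM in that APOE33 library, against at most 2.3 CPM elsewhere. The median level of the tested oligodendrocyte lineage markers was also highest in these 3 libraries, at 2.911, 2.135 and 3.143 CPM. In the other 9 it was 0.029 to 0.769 CPM. The sum of the 18 listed markers did not follow these 3 libraries as closely. It was 274 to 357 CPM in APOE44, with replicate 6 at 282 CPM, and 208 to 315 CPM in APOE33. APOE33 replicates 4, 5 and 6, at 219, 240 and 208 CPM, lay below every APOE44 library. Olig2, a transcription factor of oligodendrocyte precursors, reached 7.19 CPM in APOE44 and 7.3 CPM in APOE33, with medians of 0.702 and 0.161 CPM. Of these lists 16 of 17 astrocyte, 16 of 16 oligodendrocyte lineage and 6 of 6 neuron markers tested had positive log2 fold changes, with medians of 0.53, 1.06 and 1.08, and none was called. Without APOE44 replicate 3 these medians were 0.30, 0.50 and 0.49, and without APOE33 replicate 2 they were 0.98, 1.68 and 2.65. None of 10 endothelial, mural and meningeal markers and none of 5 lymphocyte, granulocyte and erythrocyte markers tested was called either, and 9 of the 18 listed blood cell markers were at 0 in all 12 libraries. In such bulk samples fewer cells of a type and less RNA per cell cannot be told apart. APOE33 replicate 3 stood apart in another way: 78.7% of its counts from 1 to 9 were even, against 65.9% to 68.5% in the other 11 libraries, and it had the lowest mitochondrial sum and the largest median deviation from its group (0.20 on the log2 scale).

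**Figure D1:**
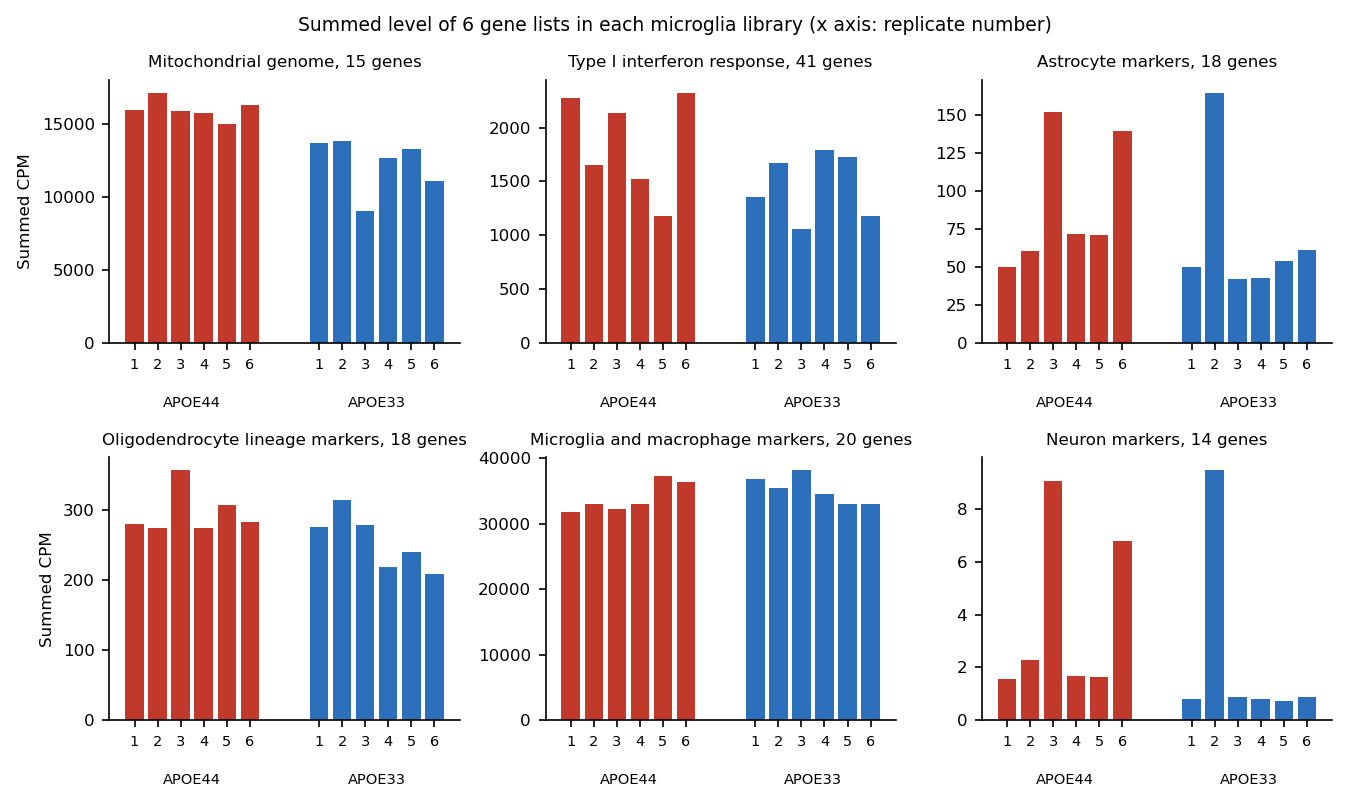
Summed CPM of 6 gene lists (y axes) in each APOE44 (red, left) and APOE33 (blue, right) microglia library, by replicate number (x axes). Astrocyte and neuron markers were highest in APOE44 replicates 3 and 6 and APOE33 replicate 2, microglia markers stayed between 31800 and 38240 CPM, and the mitochondrial sums of the 2 genotypes did not overlap. Oligodendrocyte lineage sums ran from 274 to 357 CPM in APOE44 and from 208 to 315 CPM in APOE33.

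Few genes separated the genotypes. Of 17143 genes tested, 144 (0.84%) were called at an adjusted p under 0.05, 65 (0.379%) higher and 79 (0.461%) lower in APOE44. Before adjustment, 2037 genes (11.9%) had an unadjusted p under 0.05, 861 higher (5.02%) and 1176 lower (6.86%), around a median log2 fold change of -0.0041 over all genes. Among the 144, 43 differed by a log2 value of at least 1 (23 higher, 20 lower), 26 by 0.5 to 1 and 75 by less than 0.5. All 6 APOE44 libraries lay above all 6 APOE33 libraries for 46 of the called genes and below them for 51, and the groups overlapped for 47. Over all tested genes, groups did not overlap for 1.13%, with APOE44 above for 0.49% and below for 0.636%. Of the called genes 120 are protein coding, 67 overlap another annotated gene and 43 of these overlap one on the opposite strand, and 19 averaged under 1 CPM in both groups.

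The calls fell into a small set of large steps and a longer set of shifts. Leaving out each of the 12 libraries in turn kept 76 of the 144 calls every time, 41 higher and 35 lower, while the number of calls ran from 81 without APOE44 replicate 4 to 191 without APOE44 replicate 5; it was 90 without APOE44 replicate 1 and 95 without APOE33 replicate 4. Without the 3 libraries richest in astrocyte markers, 106 genes were called, 58 higher and 48 lower, and 87 of these were among the 144. DESeq2 called 418 genes, 136 of them shared.

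**Figure D2:**
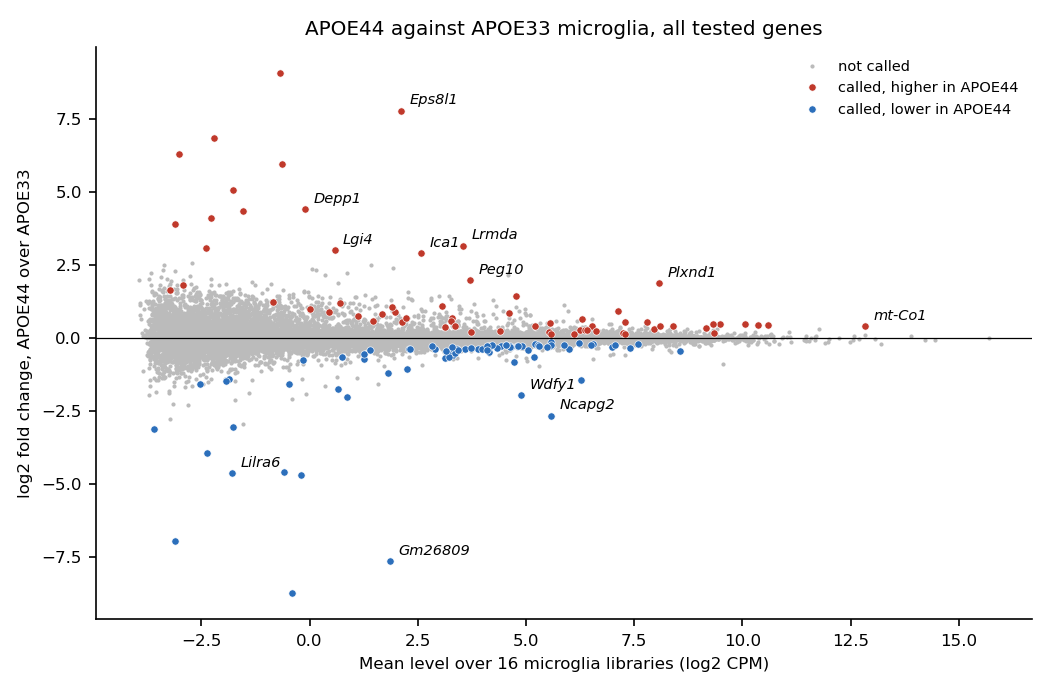
Log2 fold change of APOE44 over APOE33 (y axis) against mean level in log2 CPM (x axis) for the 17143 tested genes; red and blue points are the 65 called higher and the 79 called lower. Large called differences stand apart from the grey cloud at every level, and the called mitochondrial genes lie at the far right with small differences.

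Among expressed genes the largest rise was that of Eps8l1, a relative of the actin regulator EPS8 (chromosome 7, 4460674 to 4480487, plus strand). It had 6.49, 8.97 and 13.1 CPM in APOE44 and 0.0273, 0.0362 and 0.0882 CPM in APOE33 (log2 fold change 7.78, SE 0.31, adjusted p = 3.3e-10). Every APOE44 library carried the transcript and the APOE33 libraries had almost none, while the 4 APOEKO libraries had 2.07 to 4.85 CPM and the 6 ApoeWT libraries 3.85 to 6.46 CPM, so the APOE33 libraries are the ones that stand away from all others. Its relative Eps8, the other tested member of the family, averaged 1.82 CPM in APOE44 and 1.92 CPM in APOE33 and was not called.

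Lrmda, a leucine-rich repeat gene linked to pigment cells, had 15.5, 16.1 and 17.1 CPM in APOE44 and 1.33, 1.93 and 2.13 CPM in APOE33 (log2 fold change 3.16, SE 0.09, adjusted p = 1.26e-12). Here the knock-out sat with APOE44, at 18.8 to 19.9 CPM, and ApoeWT with APOE33, at 1.4 to 1.91 CPM. Wdfy1, whose endosomal protein helps Toll-like receptor signalling, showed the same arrangement in the opposite direction. It had 13.5, 14.7 and 16 CPM in APOE44 and 53.7, 56.6 and 58.7 CPM in APOE33 (log2 fold change -1.94, SE 0.04, adjusted p = 1.21e-13), beside 11.9 to 13.2 CPM in APOEKO and 53.8 to 57.6 CPM in ApoeWT. Wdfy1 overlaps Mrpl44 on the other strand, and the counting of strand is not given in the sources used here.

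For a further group of genes the APOE44 libraries lay apart from all other microglia. Ncapg2, a subunit of the chromosome-folding complex condensin II, had 8.64, 9.16 and 11.8 CPM in APOE44 and 54.6, 61.4 and 64.2 CPM in APOE33 (log2 fold change -2.65, SE 0.07, adjusted p = 1.08e-12), with 78.0 to 90.5 CPM in APOEKO and 55.4 to 76.2 CPM in ApoeWT. Plxnd1, a receptor for semaphorins, had 445, 482 and 504 CPM in APOE44 and 113, 133 and 142 CPM in APOE33 (log2 fold change 1.87, SE 0.06, adjusted p = 3.07e-12), with 149 to 179 CPM in APOEKO and 138 to 190 CPM in ApoeWT. Neither gene's groups came near each other. Ica1, an autoantigen of secretory vesicles, had 11.0, 12.9 and 14 CPM in APOE44 and 1.17, 1.66 and 2.14 CPM in APOE33 (log2 fold change 2.90, SE 0.20, adjusted p = 4.65e-07), and at most 4.01 CPM in any APOEKO or ApoeWT library. The noncoding Gm26809 had 0, 0.0268 and 0.0722 CPM in APOE44 against 5.18, 6.71 and 8.56 CPM in APOE33 (log2 fold change -7.61, SE 0.32, adjusted p = 3.3e-10) and at least 3.81 CPM in the APOEKO and ApoeWT libraries. Bid, a pro-apoptotic member of the BCL2 family, had 16.2, 17.4 and 19.2 CPM in APOE44 and 27.4, 30.8 and 33.0 CPM in APOE33 (log2 fold change -0.82, SE 0.06, adjusted p = 3.71e-07); all APOEKO and ApoeWT libraries lay at 28.3 CPM or more.

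**Figure D3:**
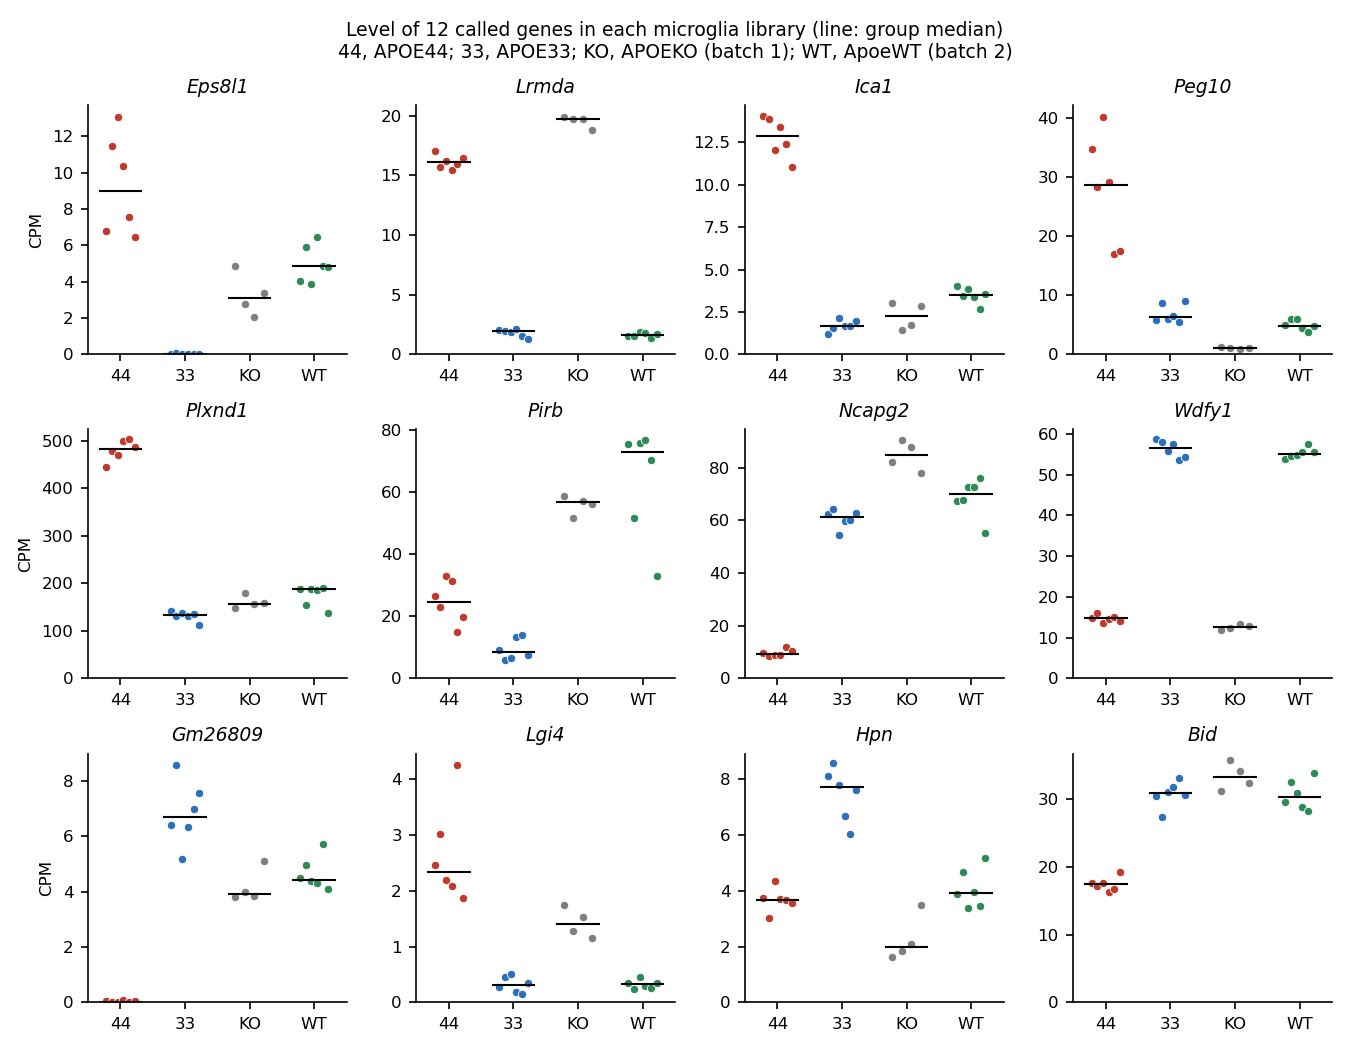
Level in CPM (y axes, from 0) of 12 called genes in each microglia library, with APOE44, APOE33, APOEKO and ApoeWT side by side (x axes; ApoeWT is batch 2) and the group median as a line. Eps8l1 is near 0 in APOE33 alone, Lrmda and Wdfy1 place APOEKO with APOE44, and Ncapg2, Plxnd1, Ica1, Gm26809 and Bid set APOE44 apart from the other genotypes.

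These arrangements were counted over the 97 called genes whose APOE44 and APOE33 libraries did not overlap. All 4 APOEKO libraries lay at or beyond the nearest APOE44 library for 19 of them, at or beyond the nearest APOE33 library for 35, and between or on both sides for 43. The 6 ApoeWT libraries lay with APOE44 for 21, with APOE33 for 31 and between or on both sides for 45, and their batch cannot be told apart from their genotype. Among the 39 of these genes with a log2 value of at least 1, APOEKO lay with APOE44 for 10 and with APOE33 for 10. Genes with both APOEKO and ApoeWT on the APOE33 side at that size were Serpina3g, D430020J02Rik, Ncapg2, Gm5815, Peg10 and St7.

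Some called genes had called neighbours. Of 136 called genes with a nuclear position, 60 had another called gene within 1 Mb, in 19 blocks, 10 of which held 3 or more. Chromosome 6 had 23 of 903 tested genes called (2.55%) and chromosome 7 had 29 of 1378 (2.1%), against 0.84% over all genes. How often other sets of genes of that number have such neighbours was not computed. In the block with the most calls, on chromosome 7 from 3289080 to 5057116, 57 of 68 tested genes were not called, with a median absolute log2 fold change of 0.20 and a highest of 2.76.

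That chromosome 7 block held 11 calls, 5 higher and 6 lower. Besides Eps8l1 it holds paired immunoglobulin-like receptors, which balance activating and inhibitory signals on myeloid cells. Pirb, whose product binds MHC class I and inhibits the cell, had 15, 24.8 and 32.9 CPM in APOE44 and 5.91, 8.44 and 14 CPM in APOE33 (log2 fold change 1.44, SE 0.24, adjusted p = 0.00882), with 51.7 to 58.7 CPM in APOEKO. Lilra5, an activating receptor, had 7.59, 11.0 and 11.6 CPM in APOE44 and 3.95, 4.89 and 5.76 CPM in APOE33 (log2 fold change 1.09, SE 0.11, adjusted p = 3.7e-05). Lilra6, a close relative, had 0, 0.0191 and 0.0666 CPM in APOE44 and 0.415, 0.675 and 0.979 CPM in APOE33 (log2 fold change -4.63, SE 0.73, adjusted p = 0.00411). It moved in the opposite direction to Pirb and Lilra5. Gm14548, a called gene between Pirb and Lilra6, also fell (log2 fold change -4.56, adjusted p = 8.21e-05). Of the 28 tested Fc and paired receptors on the list, Pirb, Lilra5 and Lilra6 were the called ones, and the median log2 fold change was 0.10. Widely expressed members such as Fcgr2b, an inhibitory Fc receptor at 808 to 929 CPM in APOE44 and 745 to 921 CPM in APOE33, overlapped between groups. Reads of such similar genes may be shared between them, so the level of a single member is uncertain. Myadm, a membrane protein of myeloid cells at the edge of the block, had 77.2, 84.3 and 92.6 CPM in APOE44 and 46.8, 53.4 and 57.1 CPM in APOE33 (log2 fold change 0.65, SE 0.06, adjusted p = 1.29e-05).

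A second chromosome 7 block, beginning at 30308717, held 5 calls among 43 tested genes. Hpn, the membrane serine protease hepsin, had 3.04, 3.68 and 4.34 CPM in APOE44 and 6.03, 7.72 and 8.58 CPM in APOE33 (log2 fold change -1.06, SE 0.14, adjusted p = 0.000709). It was lower in every APOE44 library than in any APOE33 library. Lgi4, a secreted glial protein, moved the other way, with 1.88, 2.33 and 4.26 CPM in APOE44 against 0.158, 0.309 and 0.502 CPM in APOE33 (log2 fold change 3.01, SE 0.28, adjusted p = 1.04e-05). Alkbh6, of the AlkB oxygenase family, had 7.41, 8.01 and 8.32 CPM in APOE44 and 12.1, 12.6 and 12.9 CPM in APOE33 (log2 fold change -0.65, SE 0.05, adjusted p = 1.32e-06).

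On chromosome 6 from 4674350 to 5298455, 4 of 9 tested genes were called. Peg10, an imprinted gene derived from a retrotransposon and expressed from the paternal copy, had 16.9, 28.7 and 40.1 CPM in APOE44 and 5.53, 6.31 and 8.96 CPM in APOE33 (log2 fold change 1.97, SE 0.21, adjusted p = 0.000111). Sgce, the paternally expressed epsilon-sarcoglycan gene that starts 99 bases away in the other direction, had 35.8, 37.3 and 44.8 CPM in APOE44 and 17.6, 21.9 and 24.6 CPM in APOE33 (log2 fold change 0.85, SE 0.13, adjusted p = 0.00398). The pair was higher in all 6 APOE44 libraries and lowest in APOEKO, at 0.886 to 1.2 CPM for Peg10 and 6.76 to 11.1 CPM for Sgce. Pon2, a paraoxonase of the same block, had 110, 114 and 119 CPM in APOE44 and 136, 142 and 152 CPM in APOE33 (log2 fold change -0.32, SE 0.04, adjusted p = 0.000714). Ppp1r9a, an actin-binding phosphatase scaffold, was called at 0.50 (SE 0.09, adjusted p = 0.0162) and missed the threshold without APOE44 replicate 4 (adjusted p = 0.0537) or APOE33 replicate 6 (adjusted p = 0.056).

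Farther along chromosome 6, Plxnd1 shared a block (115954811 to 116673952, 15 tested genes) with 3 genes that also rose. Rassf4, of the RAS-association family, had 314, 325 and 342 CPM in APOE44 and 215, 251 and 275 CPM in APOE33 (log2 fold change 0.40, SE 0.06, adjusted p = 0.0014). Depp1, a regulator of autophagy that lies within Rassf4 on the other strand, had 1.56, 2.32 and 2.69 CPM in APOE44 and 0.0193, 0.12 and 0.185 CPM in APOE33 (log2 fold change 4.40, SE 0.38, adjusted p = 5.41e-06). Washc2 rose by 0.18 (SE 0.04, adjusted p = 0.0278), a call that 8 of the 12 fits without 1 library lost (adjusted p of 0.0517 to 0.0926 without APOE44 replicate 1, 2, 4 or 6 or APOE33 replicate 1, 3, 4 or 5). Bid lay in another block of the chromosome with Atp6v1e1, a subunit of the proton pump that acidifies lysosomes. Atp6v1e1 had 127, 139 and 144 CPM in APOE44 and 166, 174 and 191 CPM in APOE33 (log2 fold change -0.35, SE 0.05, adjusted p = 0.00267). St7, a gene first described as a tumour suppressor, had 5.44, 6.05 and 6.16 CPM in APOE44 and 2.46, 2.7 and 3.19 CPM in APOE33 (log2 fold change 1.08, SE 0.10, adjusted p = 7.18e-06) and sits in one block with Gm26809.

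The chromosome 12 block (116047724 to 116463731) held Ncapg2, D430020J02Rik and Zfp386, 3 of 6 tested genes. D430020J02Rik, whose promoter window shares the capitals printed above with that of Ncapg2, had 0.37, 0.687 and 0.722 CPM in APOE44 and 2.11, 2.55 and 2.7 CPM in APOE33 (log2 fold change -2.01, SE 0.15, adjusted p = 7.7e-07). Zfp386, a zinc finger gene, had 10.9, 12.3 and 13.7 CPM in APOE44 and 8.67, 9.09 and 9.87 CPM in APOE33 (log2 fold change 0.42, SE 0.06, adjusted p = 0.00115). The divergent pair fell and the zinc finger gene rose, without overlap between groups for any of the 3. Among 13 condensin and cohesin subunits Ncapg2 was the one called, and the list's median log2 fold change was 0.01.

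**Figure D4:**
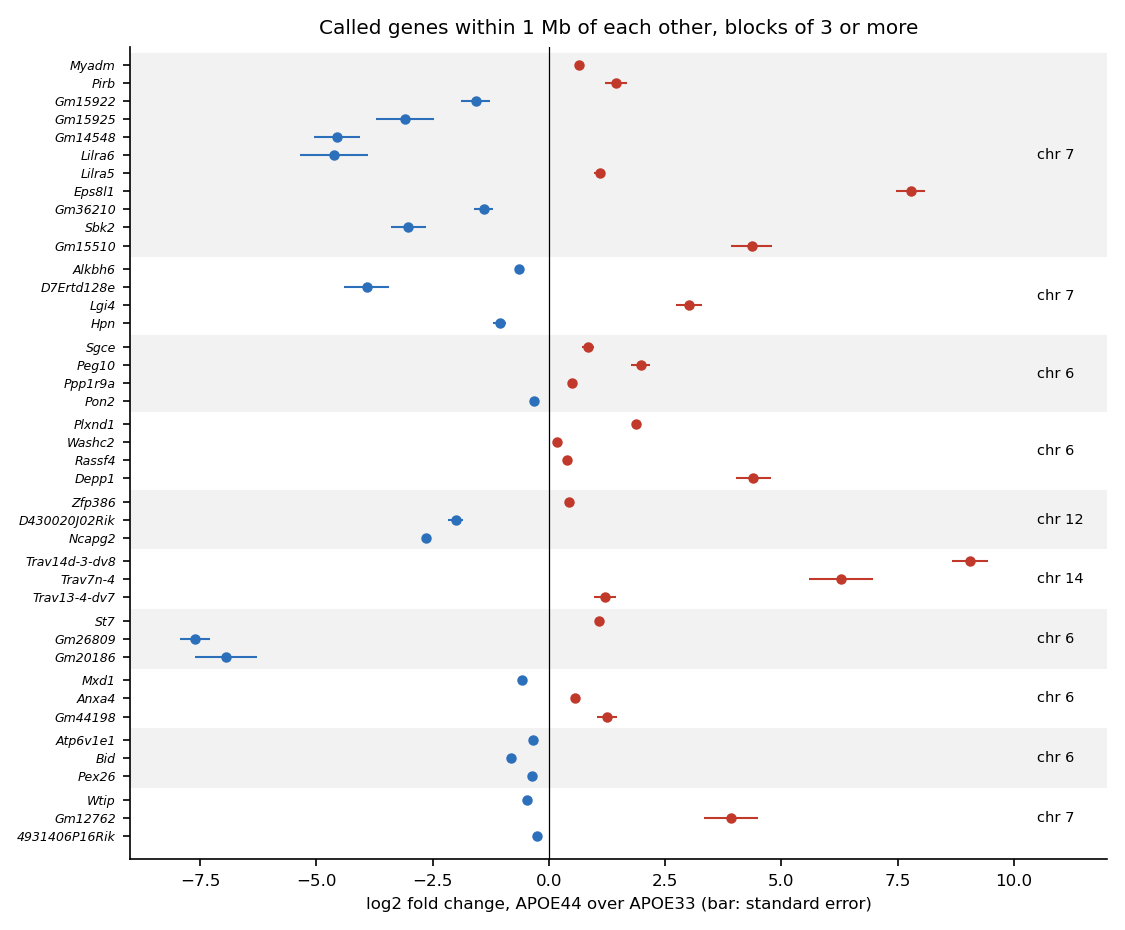
Log2 fold change of APOE44 over APOE33 (x axis) with its standard error for called genes of the 10 blocks that hold 3 or more within 1 Mb of each other (y axis, in chromosomal order within a block; red higher, blue lower). Most blocks hold genes that moved in opposite directions; fitted values of Gm20186, Trav14d-3-dv8 and Trav7n-4 depend on the prior count because a group had no reads.

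Some large calls rest on very few reads. Trav14d-3-dv8 and Trav7n-4, T-cell receptor variable segments, had no count in the APOE33 libraries and 396 and 65 counts in all over the 6 APOE44 libraries, at least 126-fold and 20.7-fold higher than a floor of 3 counts over the APOE33 group. Gm20186, which overlaps Gm26809, had no count in APOE44 and 94 counts over the APOE33 libraries, so that it was at least 32.8-fold lower in APOE44 by the same floor. Serpina3g and Serpina3m, protease inhibitors of an inflammation-responsive cluster, had medians of 0.211 and 0.345 CPM in APOE44 against 0 and 0.0139 CPM in APOE33 (log2 fold changes 6.84, SE 0.96, adjusted p = 0.00126, and 5.07, SE 0.86, adjusted p = 0.00806). Their abundant relative Serpina3n, which astrocytes make, had 13.7, 21.3 and 114 CPM in APOE44 and 1.99, 3.21 and 63.4 CPM in APOE33 (log2 fold change 2.14, SE 1.03, adjusted p = 0.439). Its 3 highest libraries were APOE44 replicates 3 and 6 and APOE33 replicate 2, the ones with most astrocyte marker RNA, whose part in these values was not tested.

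The rest of the largest rises were smaller. Rapgef5, an exchange factor for the small GTPase Rap, had 194, 210 and 233 CPM in APOE44 and 92.5, 114 and 122 CPM in APOE33 (log2 fold change 0.93, SE 0.07, adjusted p = 3.78e-07). Thnsl1, a threonine synthase-like gene, rose by 0.88 (SE 0.10, adjusted p = 0.000116), with groups that did not overlap. Sirpb1a, an activating signal-regulatory receptor, was called at 0.81 (SE 0.17, adjusted p = 0.0323) but not without APOE44 replicate 1, 2, 3 or 4 or APOE33 replicate 3 or 6 (adjusted p = 0.0529 to 0.0965). Of the largest falls, Urgcp, named for promoting cell growth, had 26.1, 28.2 and 29.5 CPM in APOE44 and 39.6, 43.3 and 49.5 CPM in APOE33 (log2 fold change -0.65, SE 0.05, adjusted p = 1.22e-06). Mxd1, a repressor that competes with MYC for its partner MAX, fell by 0.58 (SE 0.06, adjusted p = 9.79e-05), Ankrd26 by 0.50 (SE 0.04, adjusted p = 7.18e-06) and Ier5l by 0.66 (SE 0.10, adjusted p = 0.00279), all without overlap. P3h4 was called at -0.56 (adjusted p = 0.0493) and in 2 of the 12 fits without 1 library, those without APOE44 replicate 5 or APOE33 replicate 2; its adjusted p was 0.0663 to 0.154 in the other 10.

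Most listed transcripts of the mitochondrial genome, which encodes core subunits of the respiratory chain, were higher in APOE44. Of 15 listed genes 8 were called higher and none lower, with a median log2 fold change of 0.35 over the list against -0.0041 over all genes. Called or not, 9 had a positive and 6 a negative log2 fold change, the lowest -0.32. Their sum was 14990, 15930 and 17180 CPM in APOE44 and 9048, 12990 and 13860 CPM in APOE33. The 2 ranges did not overlap, and the lowest APOE33 value was that of replicate 3.

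Among the complex I subunits, mt-Nd1 had 1186, 1283 and 1373 CPM in APOE44 and 775, 962 and 1085 CPM in APOE33 (log2 fold change 0.48, SE 0.07, adjusted p = 0.00226). The mt-Co1 subunit of cytochrome oxidase, the most abundant of them, had 7709, 8308 and 8782 CPM in APOE44 and 4719, 6826 and 7308 CPM in APOE33 (log2 fold change 0.41, SE 0.07, adjusted p = 0.00548). Cytochrome b, mt-Cytb, had 1541, 1625 and 1783 CPM in APOE44 and 936, 1280 and 1510 CPM in APOE33 (log2 fold change 0.43, SE 0.07, adjusted p = 0.00548). Every APOE44 library lay above every APOE33 library for these 3 and also for mt-Nd2, mt-Nd4, mt-Nd5 and mt-Nd6, which rose by 0.47, 0.47, 0.44 and 0.40. Without APOE33 replicate 3 the list's median was 0.34, and it was 0.30 in female and 0.53 in male libraries alone. None of the 15 was called in either sex alone, and 2, mt-Nd1 and mt-Nd6, were called with the replicate block. The call of mt-Nd4 was lost without APOE44 replicate 1, 2 or 3 or APOE33 replicate 4, 5 or 6 (adjusted p = 0.0516 to 0.0754), and that of the ribosomal mt-Rnr2 (0.34, adjusted p = 0.0412) in 10 of 12 fits, all but those without APOE44 replicate 5 or APOE33 replicate 5 (adjusted p = 0.0602 to 0.129). The 6 genes mt-Nd3, mt-Nd4l, mt-Co2, mt-Co3, mt-Atp6 and mt-Atp8 were counted at under 4 CPM in every library and were not called, nor was mt-Rnr1 (0.35, adjusted p = 0.389). Nuclear copies of mitochondrial sequence can share such reads, so single levels are uncertain.

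Of 36 nuclear genes of oxidative phosphorylation none was called by edgeR or DESeq2, the median log2 fold change was 0.01, and their sums were 3026, 3133 and 3308 CPM in APOE44 against 3089, 3131 and 3149 CPM in APOE33. Uqcrfs1, the Rieske subunit of complex III, had the smallest p among them, at 0.09 (SE 0.04, adjusted p = 0.427). Glycolysis and hypoxia genes gave 0 calls of 24 and a median of -0.03.

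The listed interferon-response genes leaned to APOE44 without a call. Ifi208, which is not on the list, was called higher in APOE44 (log2 fold change 5.935, adjusted p = 5.58e-05). All 41 listed genes had positive log2 fold changes, where 48.6% of all genes did, with a median of 0.63; 22 had an unadjusted p under 0.05 (against 5.02% of all genes in that direction), no adjusted p was under 0.05, and DESeq2 called 6. The list's sum was 1182, 1892 and 2325 CPM in APOE44 and 1057, 1509 and 1790 CPM in APOE33, so that the groups overlapped widely. These genes answer the same signal, so the 41 directions are not independent of each other. Ifi27l2a, an interferon-induced mitochondrial protein, had the smallest p, with 15, 26.9 and 38.9 CPM in APOE44 and 2.98, 14 and 16.3 CPM in APOE33 (log2 fold change 1.32, SE 0.34, adjusted p = 0.113). Ifit3, whose promoter is printed above, had 9.16, 29.1 and 54.5 CPM in APOE44 and 6.63, 24.0 and 27.3 CPM in APOE33 (log2 fold change 0.92, SE 0.46, adjusted p = 0.455). Isg15, a ubiquitin-like modifier, had 4.93, 9.53 and 16.6 CPM in APOE44 and 3.05, 7.59 and 8.74 CPM in APOE33 (log2 fold change 0.74, SE 0.30, adjusted p = 0.341). The list's median was 0.21 in female and 1.10 in male libraries alone, 0.36 without the 3 libraries richest in astrocyte markers, and between 0.42, without APOE33 replicate 6, and 0.74 without APOE44 replicate 4 when 1 library was left out.

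Of 19 interferon ligands, receptors and signalling genes edgeR called none and DESeq2 1, and the median log2 fold change was -0.01. Ifnar1, a chain of the type I interferon receptor, had 358, 380 and 398 CPM in APOE44 and 302, 347 and 368 CPM in APOE33 (log2 fold change 0.15, SE 0.04, adjusted p = 0.0769). MHC class I presentation genes gave 14 positive of 17 and a median of 0.13 (0.08 without APOE44 replicate 6), with no call by edgeR and 2 by DESeq2; B2m, the light chain of class I, had 2124, 2245 and 2464 CPM in APOE44 and 1760, 1971 and 2189 CPM in APOE33 (log2 fold change 0.21, SE 0.06, adjusted p = 0.121). MHC class II genes had a median of -0.13 with 0 of 12 called.

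Other immune lists held few calls. Of 24 Toll-like receptor and adaptor genes Wdfy1 was the one called, and the median log2 fold change of the whole list was 0.0049. Of 31 complement and engulfment genes edgeR called none and DESeq2 2; Cd93, a receptor linked to clearance of dying cells, had 32.6, 52.8 and 67.4 CPM in APOE44 and 9.56, 25.2 and 46.4 CPM in APOE33 (log2 fold change 1.12, SE 0.26, adjusted p = 0.0725). Chemokines gave 0 calls of 23 with 19 positive and a median of 0.20 (0.10 without APOE44 replicate 6 and 0.29 without APOE44 replicate 2), and Cxcl1 and Cxcl3, neutrophil attractants, stood at 1.39 and 1.42 with adjusted p of 0.287 and 0.282. Among 24 cytokine, inflammasome and prostaglandin genes edgeR called none and DESeq2 2; Nlrp3, the inflammasome sensor, had 99.1, 106 and 112 CPM in APOE44 and 66.5, 77.9 and 104 CPM in APOE33 (log2 fold change 0.37, SE 0.10, adjusted p = 0.133). Of 20 immediate early genes Atf3, a stress-induced transcription factor, rose, with 257, 300 and 309 CPM in APOE44 and 221, 229 and 262 CPM in APOE33 (log2 fold change 0.32, SE 0.06, adjusted p = 0.0117).

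Among 23 apoptosis regulators 2 fell, Bid and Bbc3. Bbc3, which encodes the p53 target PUMA, had 14.5, 18.4 and 20.1 CPM in APOE44 and 19.9, 22.1 and 24.2 CPM in APOE33 (log2 fold change -0.34, SE 0.07, adjusted p = 0.0328). Its call was lost without APOE44 replicate 1 or 4 or APOE33 replicate 2, 3, 4, 5 or 6 (adjusted p = 0.0546 to 0.108). The list's median was 0.02. Cell cycle genes gave 0 calls of 34 and a median of 0.04.

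Lists of microglial state held no gene called by edgeR, and DESeq2 called 1 disease-associated gene. None of 24 homeostatic genes (median log2 fold change -0.07) and none of 29 tested disease-associated microglia genes (median -0.06) was called, and the disease-associated genes summed to 125800 to 142800 CPM in APOE44 and 123500 to 152400 CPM in APOE33. Bin1, an endocytic gene and Alzheimer risk locus, had 303, 322 and 396 CPM in APOE44 and 322, 376 and 460 CPM in APOE33 (log2 fold change -0.22, SE 0.08, adjusted p = 0.234). None of 29 Alzheimer risk genes other than APOE was called (median 0.00). Of 34 tested neighbours of Apoe on chromosome 7, Irf2bp1 fell by 0.26 (SE 0.05, adjusted p = 0.0128; 0.0558 without APOE44 replicate 4) and Fbxo46 by 0.36 (SE 0.08, adjusted p = 0.0388; called in 3 of 12 fits without 1 library, and at 0.0691 to 0.112 without APOE44 replicate 1, 2, 3, 4 or 6 or APOE33 replicate 3, 4, 5 or 6), with a median of -0.07. Border macrophage markers had 0 of 9 called by edgeR and 1 by DESeq2; F13a1 stood at 1.44, 2.78 and 12.4 CPM in APOE44 and 0.546, 0.712 and 1.84 CPM in APOE33 (log2 fold change 2.40, SE 0.80, adjusted p = 0.234).

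Lists of lipid and matrix genes, the pathways named in the study's title, held no gene called by edgeR in these microglia; DESeq2 called 1 fatty acid and lipid droplet gene, 1 lysosomal and trafficking gene and 1 of the proteoglycans and proteases. Of 20 cholesterol synthesis enzymes none was called, the median log2 fold change was -0.03, and the sums were 464, 537 and 682 CPM in APOE44 against 415, 546 and 887 CPM in APOE33. Ebp, the sterol isomerase, had the smallest p among them, with 23.4, 25.1 and 26.6 CPM in APOE44 and 25.0, 27.1 and 27.5 CPM in APOE33 (log2 fold change -0.09, SE 0.05, adjusted p = 0.455). None of 13 sterol uptake and SREBP genes (median -0.0047), 19 LXR targets (-0.02), 33 fatty acid and lipid droplet genes (0.03) or 35 lysosomal and cholesterol trafficking genes (-0.03) was called. Acaca, the first enzyme of fatty acid synthesis, stood at -0.39 (SE 0.12, adjusted p = 0.181), and Mitf, a regulator of lysosomal genes, at 0.18 (SE 0.05, adjusted p = 0.131). A p that misses the threshold does not show equal levels. At this spread a log2 difference of -0.39, as for Acaca, went uncalled.

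Of the 2 matrix lists, edgeR called 0 of 45 collagens and glycoproteins, with 35 positive and a median of 0.32, and 0 of 28 proteoglycans and proteases, with a median of 0.05. The first median was 0.07 without APOE44 replicate 3, one of the libraries richest in astrocyte markers, and 0.45 without APOE33 replicate 2, and the second ran from 0.04 to 0.13 when 1 library was left out. Fn1, fibronectin, had 383, 508 and 830 CPM in APOE44 and 567, 731 and 1940 CPM in APOE33 (log2 fold change -0.90, SE 0.30, adjusted p = 0.233). Mmp9, a matrix metalloproteinase of activated myeloid cells, had 0.371, 0.557 and 0.801 CPM in APOE44 and 0.491, 1.74 and 2.54 CPM in APOE33 (log2 fold change -1.66, SE 0.39, adjusted p = 0.0666). Of 23 semaphorins, plexins and neuropilins Plxnd1 was the one called, and the list's median was 0.02. No gene was called among 22 unfolded protein, integrated stress and NRF2 genes or among 20 TGF-beta and colony stimulating factor genes.

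The genotype effect was then compared with that in the astrocytes of batch 1, which share no library with the microglia. One of the 6 APOE33 astrocyte libraries, replicate 1, carries a genotype tag of WT and was grouped by its title and source. Of 21647 genes tested for a difference of the effects, 64 (0.296%) were called, 33 with a higher and 31 with a lower value in microglia; the count was 245 without replicate 2 of APOE33 in both cell types, 31, 38, 35 and 42 without replicate 1, 2, 4 or 6 of APOE44 and 40 without replicate 3 of APOE33. Without replicate 1 of APOE33 it was 58. With the replicate number as a block it was 38, 31 of them among the 64. Of the 144 microglia calls 40 differed between the cell types, 29 of them with an opposite sign in astrocytes. The smallest adjusted p in astrocytes among those 29 was 0.153, for Nat8l, so the opposite direction was not called there. Some of these astrocyte values were small, as for Sgce (-0.03) and Ankrd26 (0.04).

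Ncapg2 had the smallest p. It averaged 9.67 CPM in APOE44 and 60.7 CPM in APOE33 microglia, but 22.5 CPM in APOE44 and 19.2 CPM in APOE33 astrocytes (difference of log2 fold changes -2.87, SE 0.12, adjusted p = 1.09e-15). Ica1 averaged 12.8 CPM in APOE44 and 1.70 CPM in APOE33 microglia, but 2.04 CPM in APOE44 and 3.46 CPM in APOE33 astrocytes (difference 3.64, SE 0.31, adjusted p = 2.92e-08). Peg10, Sgce, Ppp1r9a and Pon2, the 4 called genes of the proximal chromosome 6 block, each differed between cell types, and none of them was called in astrocytes. Other genes stepped in both cell types: Wdfy1 averaged 15 CPM in APOE44 and 73.8 CPM in APOE33 astrocytes, Gm26809 0.0224 and 11.8 CPM, and Depp1 2.22 and 0.0784 CPM. Eps8l1 averaged 11.7 CPM in APOE44 and 0.70 CPM in APOE33 astrocytes (log2 fold change 4.09, SE 0.21, adjusted p = 2.01e-13). In microglia it averaged 9.29 and 0.0441 CPM, so the larger step there came with an APOE33 level close to 0. Wdfy1 fell somewhat less in microglia (difference 0.35, SE 0.06, adjusted p = 0.00122), whereas for Gm26809 (1.42, adjusted p = 0.329) and Depp1 (-0.47, adjusted p = 0.807) no difference was called. Of the mitochondrial genes mt-Nd1, mt-Nd2, mt-Nd4 and mt-Cytb differed between the cell types, with astrocyte values of -0.05, -0.09, -0.08 and -0.03.

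**Figure D5:**
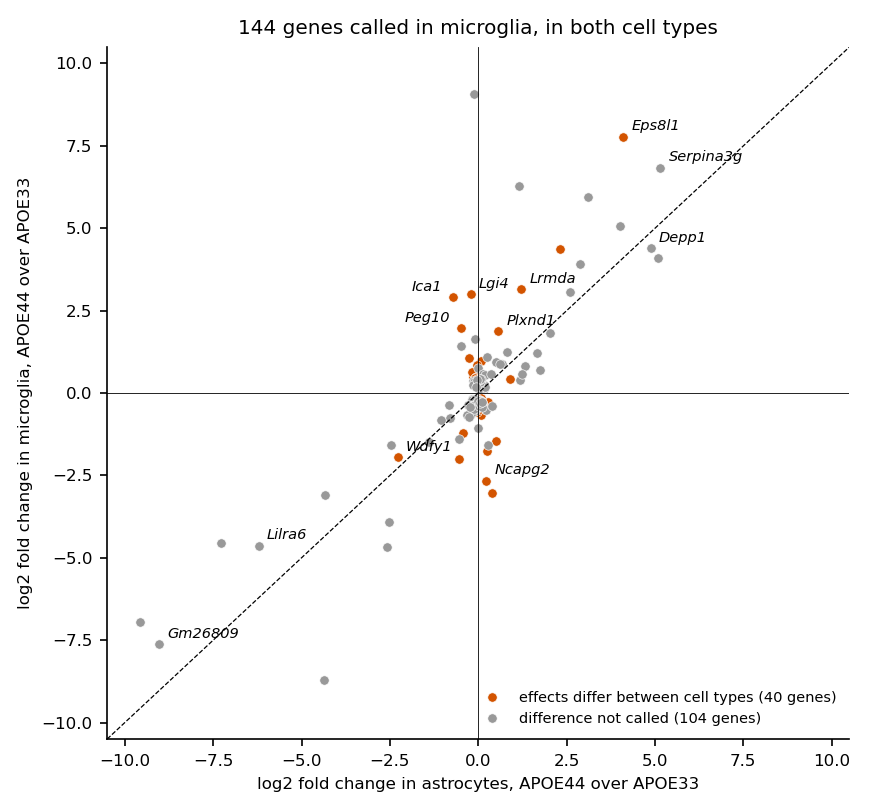
Log2 fold change of APOE44 over APOE33 in microglia (y axis) against that in astrocytes (x axis) for the 144 genes called in microglia; orange points are the 40 whose effects differ between the cell types, and the dashed line marks equal effects. Ncapg2, Ica1, Lgi4 and Peg10 lie far from the dashed line, while Gm26809, Wdfy1 and Depp1 moved far in the same direction in both cell types.

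Over all genes the replicates of each genotype were close. The median SD of log2 CPM per gene was 0.157 in APOE44 and 0.188 in APOE33, over 8494 genes with a mean log2 CPM of at least 3, and the SD was the larger in APOE44 for 35% of genes. Spearman correlations between libraries across genes ran from 0.981 to 0.992 within APOE44, from 0.974 to 0.993 within APOE33 and from 0.972 to 0.992 between them. Only 13 of these genes in APOE44 and 19 in APOE33 had an SD above 1. Some lists nevertheless split the APOE33 libraries. Homeostatic genes summed to 21410 to 22380 CPM in replicates 1 to 3 and to 18290 to 19270 CPM in replicates 4 to 6. Immediate early genes summed to 2040 to 2318 and 1203 to 1398 CPM. Cholesterol synthesis enzymes went the other way, at 415 to 471 and 621 to 887 CPM. Type I interferon and MHC class I sums overlapped between these replicates. The cause was not tested.

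The genes that varied most were of 3 kinds. Ncan, the brain proteoglycan neurocan, had 37.3 and 33.8 CPM in APOE44 replicates 3 and 6 and 2.77 to 10.3 CPM in the other 4, and 50.8 CPM in APOE33 replicate 2 against 0.0166 to 2.95 CPM in the other 5. Clu and Atp1b2, made by astrocytes, were highest in the same 3 libraries. In APOE44 and APOE33 astrocytes Clu averaged 4005 and 4019 CPM and Atp1b2 2291 and 2242 CPM. Ncan averaged only 19.8 and 14.8 CPM there, below its level in those 3 microglia libraries. The source of its RNA was not tested. Ifit1, whose promoter is printed above, ran from 3.06 CPM in APOE44 replicate 5 to 18.6 CPM in replicate 6, and from 2.68 to 13.9 CPM in APOE33. Apoc1, a small apolipoprotein encoded beside Apoe, had 14.7 to 52.0 CPM in APOE44 and 8.83 to 63.5 CPM in 5 APOE33 libraries, with 192 CPM in APOE33 replicate 3. Rn7sk, a small nuclear RNA, was at 0.676 CPM in that library and between 8.52 and 13.6 CPM in the other APOE33 libraries. Klf2, a transcription factor of quiescent myeloid cells, was at 12.2 to 15.7 CPM in APOE33 replicates 1 to 3 and 1.47 to 2.5 CPM in replicates 4 to 6, and at 5.37 to 17.8 CPM in APOE44.

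A principal component analysis of the 500 most variable genes showed the same order. The first component held 67.8% of the variance and set APOE44 replicates 3 and 6 and APOE33 replicate 2, at 50.7, 44.0 and 49.2, apart from the other 9 libraries, at -38.9 to 7.8. Among those 9 the genotypes also lay apart, with APOE44 at -4.75 to 7.8 and APOE33 at -38.9 to -20.5. Its leading genes on the positive side, named after their values were seen, were Ret, Pdgfra, Ncan and Olig2, which mark oligodendrocyte precursors and neural cells. Gm26809, Capn11, Gm47601 and Lilra6 were among the leading genes on its negative side, so this component also carried genotype. The second, with 10.6%, followed the sex labels through genes of the Y chromosome and Xist. The third, with 7.38%, was led by Gm26809, Capn11, Gm47601 and Lilra6 on one side and Eps8l1, Ifi208 and Trav14d-3-dv8 on the other, genes called between the genotypes.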

How the data were processed

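RNA of cultured mouse microglia and astrocytes was sequenced as read pairs of 150 bases, per the labels' protocols. The authors deposited raw counts per gene in 1 table. STAR 2.5.3a, featureCounts, edgeR 3.26.8 and DESeq2 3.14 are named in the submitters' processing notes, with no role or order; the build listed there is human although the gene identifiers are mouse. The mouse build and whether counting used strand are not stated in any label or header used. Symbols and positions come from GENCODE M21 (GRCm38), in which 99.88% of 54146 identifiers matched. Sequences are RefSeq's on GRCm38.p6.

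Counts were fitted with edgeR 4.0.16 (R 4.3.3): the 16 batch 1 microglia libraries, edgeR's filter on low counts, TMM scaling, sex as a covariate, the robust quasi-likelihood F test and Benjamini-Hochberg adjustment over 17143 genes, called at 0.05. All adjusted p-values are from this test, or for the difference between cell types from the same test over the 32 batch 1 libraries. SE was taken as the absolute log2 fold change over the root of the F statistic. CPM in the text is a count scaled to its library's total, without TMM. The script was tested on simulated data. Alternatives were DESeq2 1.42.0, other scalings and filters, a replicate block, single sexes and leaving out each library, plus 1 added after seeing the data, without the 3 libraries richest in astrocyte markers.

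Named genes are Apoe, the 12 largest called rises and falls with a mean log2 CPM of at least 1 and a gene name other than a clone name, called list members, for a list without calls up to 2 with the smallest p, up to 4 genes per chromosome block, the 6 smallest p of the difference between cell types and the 8 most variable genes per genotype; others were chosen after their values were seen. The comparison and the 39 gene lists were chosen with earlier results of these data known. No 2 replicate libraries held identical counts. Results of 3 further genes that met these rules are not reported here.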

Additional observations from a re-analysis of the deposited data

Results flagged for a closer look

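Of 254 groups of 6 libraries screened for a library far from the others of its genotype, 20 gave one, where chance gives about 1 in 20. APOE44 replicate 5 held 7 of them. It was the highest for Sgce (44.8 CPM, others at most 37.9), Bin1 (396, others at most 326), H2-DMb1 (60.3, others at most 50.6), Fn1 (830, others at most 525), Smad7 (59.1, others at most 45.0) and Calhm2 (16.4, others at most 13.8), and the lowest for Ndufv2 (40.4, others at least 42.5). Of the other APOE44 libraries, replicate 6 was high for F13a1 (12.4 CPM, others at most 4.89) and Ms4a4a (78.9, others at most 52.7), replicate 3 was low for Lilra5 (7.59, others at least 10.4) and replicate 2 high for the B-cell gene Cd79a (0.185, others at most 0.103).

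APOE33 replicate 2, one of the libraries richest in astrocyte and neuron markers, was high for the neuronal genes Map2 (5.36 CPM, others at most 0.491) and Gad1 (0.199, others at most 0.0364), for F13a1 (1.84, others at most 0.869) and for Eps8l1 (0.0882, others at most 0.0435). APOE33 replicate 3 was high for Smad7 (68.7 CPM, others at most 54.5) and Tgfb1 (432, others at most 368) and low for Cd53 (336, others at least 397). APOE33 replicate 6 was low for Nlrc5 (26.2 CPM, others at least 32.6) and D430020J02Rik (2.11, others at least 2.48).

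The APOE44 effect differed between microglia and astrocytes for 27 named genes, by the edgeR test of the difference with adjusted p between 1.09e-15 and 0.046. A difference does not mean that astrocytes lacked the effect: Eps8l1 rose there too, by 4.09. The log2 fold change was the higher in microglia for Eps8l1 3.70, Lrmda 1.95, Ica1 3.64, Peg10 2.47, Plxnd1 1.32, St7 1.36, Sgce 0.88, Wdfy1 0.35, mt-Nd1 0.55, mt-Nd2 0.57, mt-Nd4 0.56, mt-Cytb 0.47, Myadm 0.85, Gm15510 2.08, Lgi4 3.23 and Ppp1r9a 0.66. It was the lower in microglia for Ncapg2 -2.87, Ier5l -0.72, Urgcp -0.42, Mxd1 -0.53, Ankrd26 -0.53, Zfp629 -0.30, Pon2 -0.42, Gm13375 -0.77, Slc12a5 -2.0, D430020J02Rik -1.46 and Zfp386 -0.48.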

How the results depend on the processing

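The count of 144 called genes was 418 with DESeq2 (220 higher, 198 lower, 136 shared), 70 at an adjusted p under 0.01, 69 with a log2 fold change of at least 0.5 asked for, 36 in female libraries alone and 15 in male libraries alone, and 81 to 191 when 1 library was left out. The other settings, RLE scaling, both other filters, 12 libraries only, no sex covariate and halved counts, gave 101 to 143. The calls of 14 genes held in all 23 settings: Wdfy1, Gm13375, Ica1, Gm26809, Plxnd1, Bid, Myadm, Eps8l1, Lgi4, Urgcp, D430020J02Rik, Ncapg2, Rapgef5 and Lrmda. The count of 64 genes that differed between cell types ran from 31 to 245 when 1 replicate number of a genotype was left out of both cell types. Of 2932 values of named genes under an alternative, 2578 kept direction and side of the threshold, 323 lost the call, 24 gained it and 7 reversed. Apoe reversed with the replicate block (0.00), in female libraries (0.11) and without APOE44 replicate 3 or APOE33 replicate 3, with a range of -0.11 to 0.16 when 1 library was left out. Stab1 gave 0.04 in female libraries and -0.25 to 0.01 when 1 library was left out, and Cd79a -0.50 in male libraries. The cause was not tested for any of these.

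With the replicate block, 35 genes were called (19 higher, 16 lower, 32 shared) and 38 differed between the cell types. The numbers are not shown to pair the libraries: correlations of same-numbered microglia libraries were -0.187 to 0.252, 1 of 6 APOE44 libraries correlated best with its own number, and 3 of 6 pairs were of 1 sex. Same-numbered microglia and astrocyte libraries shared a sex in 16 of 16 pairs, with correlations of 0.0608 to 0.429, so a link between them is possible and is not stated in the labels.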
